A study of Mus musculus with 4 samples.

Results

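Interferon response genes were followed as a group of 44 named mouse genes, and all 44 were present among the 27998 genes of the files. The members were taken by name, with no threshold on a measured value, but with earlier results of these data known. Counts of members therefore describe this list and are no independent test. They comprised 5 genes of signalling and transcription, 18 of nucleic acid sensing and antiviral defence, 11 interferon-inducible GTPases, 2 chemokines, 3 genes of antigen processing and 5 genes of ADP-ribosylation, ubiquitin and other functions. A core of 7 members (Ifit1, Ifit2, Ifit3, Rsad2, Isg15, Cmpk2 and Usp18) was used to score single cells, and the other 37 were read out in the cells so scored.

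RNA of single cells was measured with 10x Genomics 3′ chemistry in CD31+/CD45- cells sorted from hearts of untreated C57Bl6J mice. Each stage had 1 library: E12 pooled 37 animals, E15 pooled 48, P2 pooled 21 and the adult at 8 weeks pooled 6. All cells were frozen after the sort. After thawing, dead cells were removed with a kit at E12 and E15, whereas P2 and adult cells were sorted again for live cells, so stage, this handling, the digestion and the library cannot be told apart and no test between stages was possible.

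Interferons are secreted alarm proteins. Type I interferons bind Ifnar1 with Ifnar2, interferon gamma binds Ifngr1 with Ifngr2, and the kinases Jak1, Jak2 and Tyk2 then activate transcription factors. A complex with Stat2 and Irf9 binds interferon-stimulated response elements (ISRE), and gamma-activated sites (GAS) serve the response to interferon gamma. The genes switched on in this way restrict viruses and other invaders at many steps, and several of them are also present at a low level without infection, as in vascular endothelium.

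Promoter sequence was used to show what members share beyond their names. The ISRE was searched as a pair of GAAA letters with any 2 bases between them and the GAS as TTCNNNGAA, on both strands, in windows from 250 bases before to 50 bases after each start in the RefSeq table of build GRCm38.p6. The table had windows for 36 of the 44 members. An ISRE match lay in 19 of 41 member windows, in 18 of the 36 genes, and in 3.44% of all 32851 windows. A GAS match lay in 12 of the 41 windows and in 8.30% of all windows. The 6 stretches below each lie before a start in that table, for members to which the results return. They carry ISRE matches in capitals, which overlap in Isg15 and Bst2 and are in the reverse direction in Ifit1, Ifit3 and Rsad2. The stretches lie at chr4:156200830-156200929 (Isg15, minus strand), chr19:34640759-34640858 (Ifit1, plus), chr19:34583362-34583461 (Ifit3, plus), chr12:26456518-26456617 (Rsad2, minus), chr8:71537542-71537641 (Bst2, minus) and chr11:58199456-58199555 (Igtp, plus). That of Ifit3 is inside the gene's interval (chr19:34583119-34588982), before a start within it. A match is a description of the letters and no evidence of binding. Cmpk2, Ifit2, Irf7, Cxcl9, Psmb8 and Psmb9 had no ISRE match in their windows.
Isg15: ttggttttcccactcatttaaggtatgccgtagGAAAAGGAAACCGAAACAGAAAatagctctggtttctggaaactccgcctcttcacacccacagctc
Ifit1: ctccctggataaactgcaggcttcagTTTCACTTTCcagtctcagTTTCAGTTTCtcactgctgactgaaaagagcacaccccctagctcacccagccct
Ifit3: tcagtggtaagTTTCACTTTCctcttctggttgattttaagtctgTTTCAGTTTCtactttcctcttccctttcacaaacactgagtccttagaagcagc
Rsad2: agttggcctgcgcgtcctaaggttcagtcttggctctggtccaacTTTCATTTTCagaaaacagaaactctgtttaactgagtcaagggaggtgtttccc
Bst2: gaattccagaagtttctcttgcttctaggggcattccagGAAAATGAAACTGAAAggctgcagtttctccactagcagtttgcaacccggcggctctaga
Igtp: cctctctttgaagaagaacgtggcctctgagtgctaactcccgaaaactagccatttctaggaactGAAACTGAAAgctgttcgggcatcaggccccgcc

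Cells were classed by summed unique molecular identifiers (UMIs, tags that count each captured RNA molecule) of a few marker genes. Coronary cells held at least 2 UMIs of Fabp4, Cldn5 and Aplnr and more of these than of Npr3 and Tmem108, and there were 107, 1190, 4463 and 3943 of them in stage order from E12. Endocardial cells held more UMIs of Npr3 and Tmem108 and numbered 1659, 2054, 1060 and 65. Kept cells had a median depth of 1228, 998, 4504 and 1484 UMIs in the same order. Endothelial markers (Pecam1, Cdh5, Tie1, Kdr, Egfl7 and Emcn) summed to 2098, 2570, 4134 and 5890 CPM in coronary cells, where CPM is the share of a class's UMIs scaled to a total of 1000000. The artery rule (3 or more UMIs of Cxcl12, Glul, Alpl and Nebl) did not mark endothelial cells before birth, where its 308 and 64 cells at E12 and E15 held 255 and 963 CPM of endothelial markers and 1034 and 2685 CPM of mural and fibroblast markers. Artery values are therefore given for the 657 P2 and 1794 adult coronary cells that also passed that rule. Between 25 and 60 cell barcodes were shared by any pair of libraries, at most 1.02% of the smaller library.

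Coronary cells held a summed level of the 44 members of 421 CPM at E12 (95% Poisson interval 338 to 518), 885 CPM at E15 (837 to 935), 3236 CPM at P2 (3213 to 3260) and 8534 CPM in the adult (8464 to 8605). It was higher at each later stage, 2.1-fold from E12 to E15 (1.7 to 2.64), 3.66-fold from E15 to P2 (3.46 to 3.87) and 2.64-fold from P2 to the adult (2.61 to 2.67). All intervals cover counting error only. Ifitm3, a membrane protein that blocks virus entry, and Bst2, also called tetherin, which holds budding virus particles at the surface, gave 41.6% and 9.73% of this sum in the adult. Without these 2 genes the step from E12 to E15 was 1.26-fold with an interval that included 1 (0.907 to 1.78), whereas the later steps were 4.80-fold (4.32 to 5.35) and 3.56-fold (3.5 to 3.62). The core members followed the same order after E15, with 37.8, 31.8, 208 and 819 CPM. Other sums moved with stage in the same cells. Immediate-early genes were at 454, 765, 4679 and 6054 CPM, heat shock genes at 213, 318, 569 and 4324 CPM, and erythroid markers at 66.2, 163, 19.4 and 361 CPM. The part of these 3 sums in the result was not tested. The 11 leukocyte markers stood at 9.45, 20.0, 1.23 and 65.9 CPM, with Cd3e at 0 in every stage and Ptprc at 0, 2, 0 and 6 UMIs. In the adult Lyz2 had 200 UMIs, C1qa 59, C1qb 51, C1qc 40, Fcer1g 39 and Tyrobp 27, against 3, 1, 2, 0, 10 and 3 at P2. From P2 to the adult, 6 of 6 markers with at least 20 UMIs were at least 2-fold higher, beside 10.7% of all genes. The ratio of the marker sums was 53.8 (36.5 to 82.6). Without cells holding 3 or more leukocyte marker UMIs, the adult/P2 ratio of the members was 2.64. That setting removed very few adult cells and none at P2, so the ratio could hardly change. It leaves in cells with fewer than 3 such UMIs, and the part of leukocyte RNA in the result was not tested. In the E12 library, barcodes with under 100 UMIs held 807 CPM of the members, 34.3 CPM of the core, 334 CPM of Ifitm3 and 140 CPM of Bst2, so the E12 coronary levels of 421, 37.8, 109 and 118 CPM were not above this background beyond counting error.

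**Figure D1:**
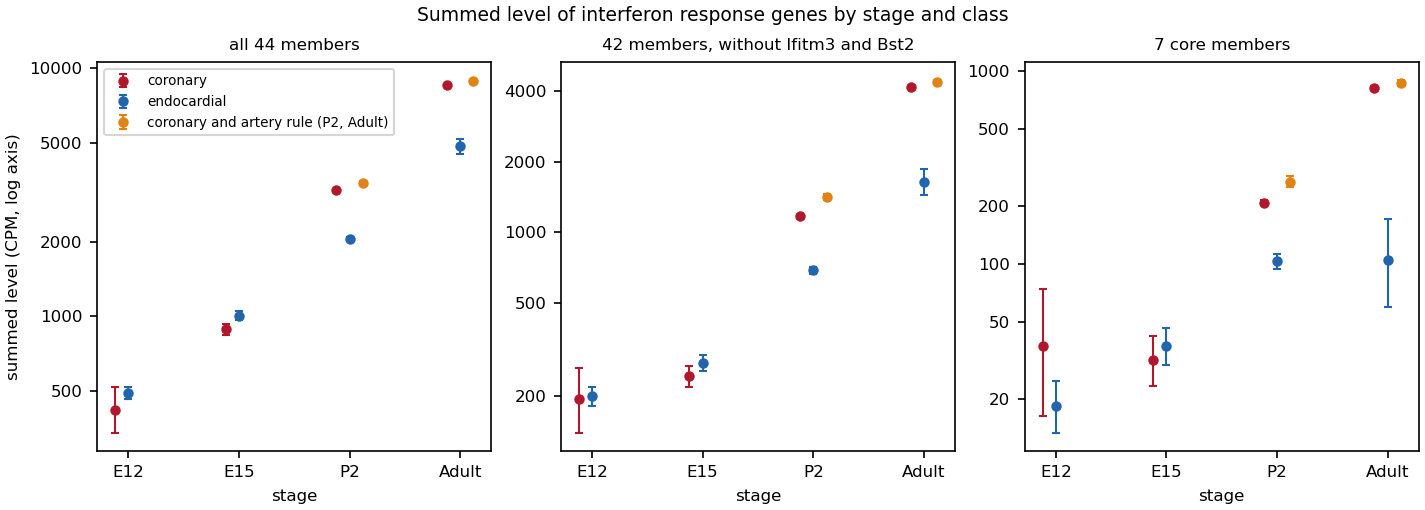
Summed level in CPM (log axis) of all 44 members, of the 42 without Ifitm3 and Bst2 and of the 7 core members, by stage, with 95% Poisson intervals that cover counting error only. For all 44 members, coronary cells (red) reached 8534 CPM in the adult against 4841 CPM in endocardial cells (blue), and both classes lay close together at E12 and E15. The core members at E12 stood at 37.8 CPM in coronary and 18.4 CPM in endocardial cells, with a ratio interval that included 1 (0.831 to 4.42). Coronary cells that passed the artery rule (orange) are shown at P2 and in the adult.

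Across birth, 38 of the 42 members with at least 20 UMIs over both stages were at least 2-fold higher in P2 than in E15 coronary cells, beside 20.6% of all 12220 genes so tested. The median member ratio was 4.98 and that of all genes 1.24. At E15, Usp18, Ifit1, Ifit3, Iigp1, Gbp2 and Gbp6 had 0 UMIs. Ifih1, Psmb9, Irgm2, Irf7, Ifit2, Oasl2, Gbp4, Cxcl9, Igtp, Ifi44, Psmb8 and Tap1 had 1 to 3 there. These members met the minimum of 20 UMIs through the larger and deeper P2 class, so the size of their steps across birth is uncertain. From P2 to the adult, 40 of 44 members were at least 2-fold higher, beside 10.7% of 12564 genes, with medians of 3.38 and 0.996. Between E12 and E15 the counts were thin: 7 members reached 20 UMIs and 2 of them, Ifitm3 and Irf1, were at least 2-fold higher, at 3.85 (2.54 to 6.13) and 2.12 (0.536 to 18.3, on 2 UMIs at E12), beside 13.2% of all genes. Of the members, 20 had any UMI in the 107 E12 coronary cells and 36 in the 1190 E15 coronary cells. Of all 27998 genes 10096 and 13237 had one, so more genes of any kind were met in the larger E15 class.

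Among the genes of signalling and transcription, Irf7, the factor that amplifies type I interferon production, had 0 UMIs at E12, 1.38 CPM at E15, 22 CPM at P2 and 170 CPM in the adult coronary cells, a step of 7.72-fold from P2 to the adult (6.94 to 8.61). Irf1, a factor induced by interferon gamma, stood at 9.45, 20.0, 61.0 and 129 CPM, so it was already measurable before birth and its adult/P2 ratio was 2.12 (1.94 to 2.31). Irf9, the DNA-binding partner of Stat2, stood at 9.45, 11.7, 34.7 and 82.5 CPM. Stat2 was lower, at 4.73, 4.84, 10.3 and 28.7 CPM. Usp18, the enzyme that removes Isg15 from proteins and damps Ifnar signalling, had no UMI in coronary cells before birth, then 21.9 CPM at P2 and 55.9 CPM in the adult. Against the floor of 3 counts at E15 it was at least 10.6-fold higher at P2.

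Of the antiviral members, Ifitm3 was the most abundant in each stage from E15 on, at 109, 419, 1684 and 3550 CPM, and in the adult it ranked 20 among the 15106 genes detected in coronary cells. Bst2 stood at 118, 223, 384 and 830 CPM and had the smaller steps, 1.72-fold from E15 to P2 (1.54 to 1.93) and 2.16-fold to the adult (2.09 to 2.24). Several core members had few or no coronary UMIs before birth. Ifit1, which binds foreign RNA ends, had no coronary UMI at E12 or E15, 12.5 CPM at P2 and 102 CPM in the adult. Ifit3, its partner, had none before birth, 5.17 CPM at P2 and 87.8 CPM in the adult, a 17.0-fold step (13.9 to 20.9). Ifit2 stood at 0, 1.38, 7.67 and 58.0 CPM. Isg15, a ubiquitin-like protein, stood at 0, 9.68, 86.9 and 246 CPM, with 8.98-fold from E15 to P2 (5.34 to 16.5) and 2.83-fold to the adult (2.64 to 3.02). Isg15 was thus measurable at E15, while Ifit1 and Ifit3 had no coronary UMI before P2. The E15 class had 1190 cells at a median of 1121.5 UMIs, and the P2 class 4463 cells at 4522. The floor of 3 counts at E15 was 2.07 CPM, so a low level of Ifit1 or Ifit3 could have gone unseen there. Reads of Ifit3 and its near-identical neighbour Ifit3b may be split between them, so their separate levels are uncertain.

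Zbp1, a sensor of nucleic acids in the Z form, had the highest adult/P2 ratio of all members at 79.7 (33.2 to 250), from 5 UMIs in P2 and 119 UMIs in adult coronary cells. Ifih1, the cytosolic sensor of long double-stranded RNA also known as Mda5, stood at 0, 0.691, 11.3 and 44.7 CPM. Eif2ak2, the kinase PKR that halts translation on double-stranded RNA, stood at 9.45, 8.98, 28.7 and 46.8 CPM and had a low adult/P2 ratio, 1.63 (1.42 to 1.87). Samhd1, which depletes nucleotides, stood at 9.45, 16.6, 27.8 and 77.8 CPM. Of the remaining antiviral members, Xaf1 stood at 78.7 CPM at P2 and 174 CPM in the adult, Rtp4 at 74.2 and 162 CPM, and Ifi35 at 70.0 and 151 CPM. Trim30a stood at 25.2 and 96.8 CPM, Oasl2 at 22.2 and 69.6 CPM, and Ifi44 at 20.5 and 65.3 CPM. Their adult/P2 ratios ran from 2.16 (Ifi35) to 3.83 (Trim30a).

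Rsad2 had the most coronary UMIs of the core members before birth. It encodes viperin, which makes a chain-terminating nucleotide, and Cmpk2 encodes a mitochondrial kinase that supplies its substrate. Their genes are neighbours, at chr12:26442743-26456452 and chr12:26469117-26479837 of GRCm38.p6. Rsad2 stood at 28.4, 15.2, 42.4 and 211 CPM in coronary cells, with 6 UMIs in 6 of 107 cells at E12 and 22 UMIs in 21 of 1190 cells at E15. Ifit1, Ifit2, Ifit3, Isg15 and Usp18 together had UMIs in 14 E15 coronary cells, too few to ask how often they met Rsad2. A UMI of these 5 genes was found in 282 of 627 cells with Rsad2 at P2 and in 1374 of all 4463 coronary cells, and in 416 of 859 cells with Rsad2 in the adult and 1368 of all 3943. These shares were not scaled for depth, and deeper cells more often hold a UMI of any gene. Endocardial cells held 2 Rsad2 UMIs at E12 and 2 at E15 among more cells. Cmpk2 stood at 9.45, 5.53, 32.0 and 58.9 CPM. This look at Rsad2 was chosen after its values were seen.

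The 11 interferon-inducible GTPases, which attack the vacuoles of intracellular pathogens, summed to 23.6, 27.0, 215 and 952 CPM in coronary cells. Iigp1 was the most abundant of them in the adult and had no UMI in coronary cells at E12 or E15, 42.1 CPM at P2 and 253 CPM in the adult. It was at least 20.3-fold higher at P2 than the E15 floor and a further 6.01-fold higher in the adult (5.55 to 6.52). Gbp2 likewise had no coronary UMI before birth, 23.7 CPM at P2 and 123 CPM in the adult. Gbp7 stood at 9.45, 2.76, 42.3 and 161 CPM and Gbp3 at 4.73, 3.46, 28.9 and 103 CPM. Tgtp2 had 13 UMIs at P2 and 258 in the adult, a ratio of 66.4 (38.2 to 126), and its near-identical copy Tgtp1, which is no member, went with it at 40.4 (23 to 77.6). Irgm1 was the exception in size, at 0, 12.4, 37.1 and 57.0 CPM with an adult/P2 ratio of 1.53 (1.35 to 1.74). Gbp4 stood at 16.2 CPM at P2 and 72.8 CPM in the adult, Igtp at 11.3 and 59.4 CPM, Ifi47 at 7.49 and 51.2 CPM, Irgm2 at 3.36 and 22.5 CPM, and Gbp6 at 1.82 and 10.6 CPM. The adult/P2 ratios of these 5 genes ran from 4.48 (Gbp4) to 6.84 (Ifi47). Levels within the Gbp family and of Tgtp2 are uncertain because reads may be shared between similar genes.

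The antigen processing members had the widest span. Psmb8 and Psmb9, subunits of the immunoproteasome that cuts peptides for MHC class I, and Tap1, a part of the pump that carries these peptides into the endoplasmic reticulum, summed to 0 CPM at E12, 4.84 at E15, 113 at P2 and 617 CPM in the adult. Psmb8 stood at 0, 2.07, 64.5 and 374 CPM. Its ratio was 31.1 from E15 to P2 (10.6 to 151, on 3 UMIs at E15) and 5.80 from P2 to the adult (5.43 to 6.19). Psmb9 had 1 UMI at E15 and reached 175 CPM in the adult, 7.03-fold above P2 (6.34 to 7.79). Tap1 stood at 23.3 CPM at P2 and 68.5 CPM in the adult, 2.94-fold higher (2.58 to 3.34). Of the 5 remaining members, Lgals3bp, a secreted glycoprotein, stood at 0, 9.68, 64.2 and 166 CPM. Parp9 and its partner Dtx3l, a ubiquitin ligase, stood at 15.8 and 10.9 CPM at P2 and at 35.2 and 33.7 CPM in the adult. Parp14 stood at 14.5 and 65.6 CPM and Rnf213, a ubiquitin ligase of the vessel wall, at 22.5 and 58.2 CPM.

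The chemokines Cxcl9 and Cxcl10, which attract T cells through the same receptor, did not move together. Cxcl9 stood at 0, 1.38, 5.36 and 82.8 CPM in coronary cells, 15.5-fold higher in the adult than at P2 (12.6 to 19.0). Cxcl10 stood at 14.2 (3 UMIs in 1 cell), 4.84, 12.1 and 7.44 CPM. It was the member lower in the adult than at P2, at 0.614-fold (0.443 to 0.835), and its UMIs sat in few cells. At P2, 50% of its 267 coronary UMIs lay in 21 cells. In the adult, 50% of its 49 UMIs lay in 6 cells.

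**Figure D2:**
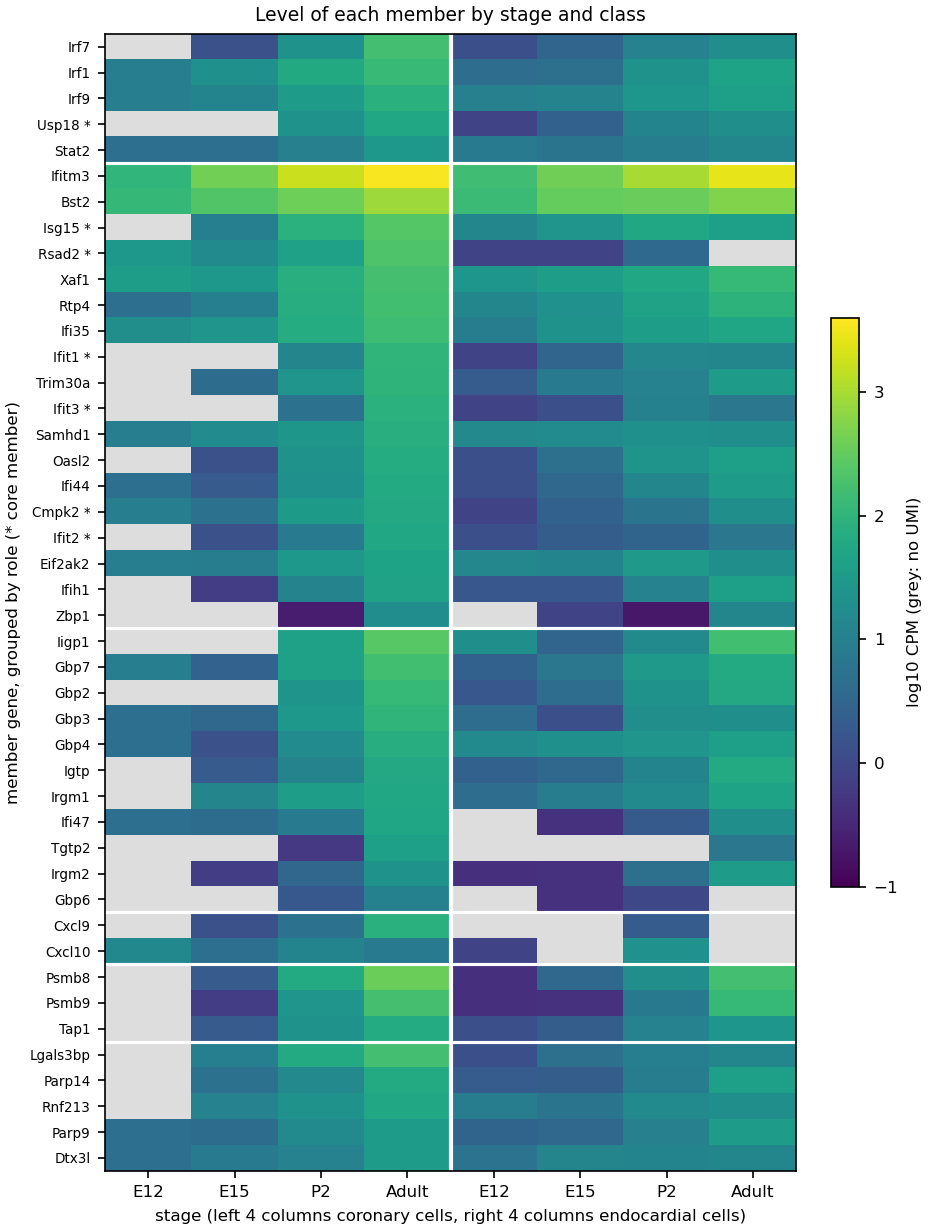
Level of each of the 44 members (rows, grouped by role, core members starred) in coronary cells (left 4 columns) and endocardial cells (right 4 columns) at each stage, as log10 CPM, with grey for no UMI. In coronary cells most rows pass from grey or dark at E12 and E15 to their brightest in the adult, Cxcl10 being the exception, and Rsad2 is grey in the 65 adult endocardial cells while it is at 211 CPM in coronary cells.

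The summed level of endocardial cells showed the stage pattern with smaller steps. It was 491, 1004, 2053 and 4841 CPM, that is 2.04-fold from E15 to P2 (1.95 to 2.14) and 2.36-fold from P2 to the adult (2.18 to 2.54). Not every part had smaller steps. Alone among the role groups, antigen processing had a larger one from P2 to the adult, 8.56-fold (6.10 to 11.8) against 5.48-fold in coronary cells. The core members were 2.04-fold higher from E12 to E15 (1.39 to 3.03), against 0.841-fold in coronary cells (0.393 to 2.06). From E15 to P2, 28 of 39 members with at least 20 UMIs were at least 2-fold higher in endocardial cells, beside 13.2% of all genes. From P2 to the adult, 19 of 37 were, beside 11.5% of all genes. Psmb9 was 16.1-fold (8.65 to 29.1), Iigp1 10.1-fold (6.10 to 16.1) and Psmb8 9.08-fold (5.65 to 14.1) higher in adult than in P2 endocardial cells, whereas the core members as a sum stood at 104 CPM at P2 and 106 CPM in the adult, with a ratio of 1.02 whose interval ran from 0.578 to 1.67 on 16 adult UMIs. The adult endocardial class had 65 cells, so its values for single genes rest on few UMIs. Its cells also held 1755 CPM of mural and fibroblast markers, against 679 CPM at P2. Of these 266 adult UMIs 263 were of Dcn and 3 of Pdgfrb, with Col1a1, Pdgfra and Kcnj8 at 0, and their part in the result was not tested.

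Coronary and endocardial cells came from the same library at each stage and shared its handling. The coronary/endocardial ratio of the summed level was 0.881 for E15 (0.822 to 0.945), 1.58 for P2 (1.54 to 1.61) and 1.76 for the adult (1.64 to 1.90). For the core members these ratios were 0.846 (0.577 to 1.23), 2.01 (1.84 to 2.21) and 7.76 (4.78 to 13.6). At E12 the ratio was 0.857 for all members (0.682 to 1.06) and 2.05 for the core (0.831 to 4.42), the latter on 8 coronary UMIs. Of the members with at least 20 UMIs over both classes, 2 of 18 were at least 2-fold higher in coronary cells at E15, beside 5.94% of all genes. The count was 13 of 42 at P2, beside 11.5%, and 28 of 44 in the adult, beside 25.5%. In the adult every member met the minimum on its coronary UMIs alone. The 65 endocardial cells held 248 UMIs of the members other than Ifitm3 and Bst2, and 4 members had none there. The adult count is therefore uncertain, and without upper limits on barcodes it was 20 of 44, beside 22.6%. The median ratio of the members was 1.58 at P2 and 2.18 in the adult, where all genes had medians of 0.939 and 0.918. Stress genes also differed between the classes. Immediate-early genes stood at 4679 CPM in coronary and 2010 CPM in endocardial cells at P2 and at 6054 and 1392 CPM in the adult, and heat shock genes at 569 and 332 CPM and at 4324 and 402 CPM. Their part in the result was not tested.

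Single genes were higher in either class. Rsad2 stood at 15.2 CPM in coronary and 0.895 CPM in endocardial cells at E15, a ratio of 17.0 (4.18 to 149). Its P2 values were 42.4 and 3.78 CPM (11.2, 7.15 to 18.7). In the adult it was at least 10.7-fold higher in coronary cells, since the 65 endocardial cells held no Rsad2 UMI. Cmpk2, its neighbour, was 5.37-fold higher at P2 (3.72 to 8.01), Lgals3bp 6.73-fold (5.05 to 9.17) and Psmb8 3.41-fold (2.77 to 4.25). Irf1 had coronary/endocardial ratios of 4.07 for E15 (1.98 to 9.04) and 2.67 for P2 (2.21 to 3.26). On the endocardial side, Gbp4 stood at 20.1 CPM in endocardial and 1.38 CPM in coronary cells at E15 (ratio 0.0687, 0.00807 to 0.263) and at 25.4 and 16.2 CPM at P2. Isg15 stood at 24.6 CPM in endocardial and 9.68 CPM in coronary cells at E15 (0.393, 0.202 to 0.717), and the order was the opposite at P2, with 55.5 and 86.9 CPM. Ifit3 was 0.50-fold in coronary cells at P2 (0.358 to 0.709). The P2 ratio of Cxcl10, 0.570, rested on a single endocardial cell that held 89 of the class's 107 UMIs.

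Within the coronary class the artery rule made little difference in the adult. The member sum was 8885 CPM in cells that passed it and 8165 CPM in the others, a ratio of 1.09 (1.07 to 1.11). In the cells that passed, 0 of 44 members were 2-fold higher, beside 1.92% of all genes. Ifi47 came nearest at 1.69 (1.35 to 2.13), followed by Irf7 at 1.57 (1.39 to 1.77). Cxcl9 was lower in cells that passed the rule, at 0.532 (0.445 to 0.636). Of 6 leukocyte markers with at least 20 UMIs, 4 were at least 2-fold higher in these cells, and their list had a ratio of 3.21 (2.56 to 4.06). Of the 6 endothelial markers, Emcn among them, 0 were 2-fold higher or lower. Whether the adult cells that passed the rule are arterial was not tested with other genes, so the small difference need not hold for arteries. At P2 the ratio of the sum was 1.07 (1.05 to 1.10), with Ifi47 at 2.51 (1.77 to 3.51), Lgals3bp at 2.37 (2.11 to 2.66) and Cxcl9 at 0.241 (0.0769 to 0.580).

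Whether the UMIs sat in few cells or in all was then asked of each member, by setting the cells that held a UMI against the number an even spread over cells by their depth would give. A value of 1 means an even spread and a lower value means fewer, richer cells. Of the 42 members with at least 100 UMIs in adult coronary cells, 6 were under 0.8, beside 2.75% of 6682 genes, and the median was 0.928 for the members and 0.988 for all genes. Ifitm3 had a UMI in 3744 of 3943 cells (95%) where 3870 were expected. An even spread of its 23371 UMIs already reaches nearly all cells, so this ratio has little room to show unevenness. After thinning to 500 UMIs its ratio was 0.924, beside a median of 0.974 for the members. Iigp1 had the lowest ratio before thinning, with a UMI in 851 cells where 1306 were expected (0.652), up to 21 UMIs in a cell and 50% of its UMIs in 176 cells. Isg15 was found in 845 cells where 1276 were expected (0.662), Ifit1 in 412 of 605 (0.681), Ifit3 in 374 of 529 (0.707), Rsad2 in 859 of 1132 (0.759) and Cxcl9 in 399 of 501 (0.796). Psmb9 (0.989), Samhd1 (0.989), Parp9 (0.988), Stat2 (0.986) and Irf9 (0.985) had ratios like that of the median gene. Stat2 had 189 UMIs and Parp9 232, against 1666 of Iigp1 and 1617 of Isg15. With so few UMIs few cells can hold more than 1, so their ratios have less room to show unevenness. The pattern at P2 was similar for Iigp1 (0.586), Isg15 (0.691), Ifit1 (0.711), Cxcl9 (0.749) and Rsad2 (0.758), and Cxcl10 was the most uneven there at 0.532. After thinning every adult cell to 500 UMIs no member stayed under 0.8, since few cells then hold more than 1 UMI of a gene.

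**Figure D3:**
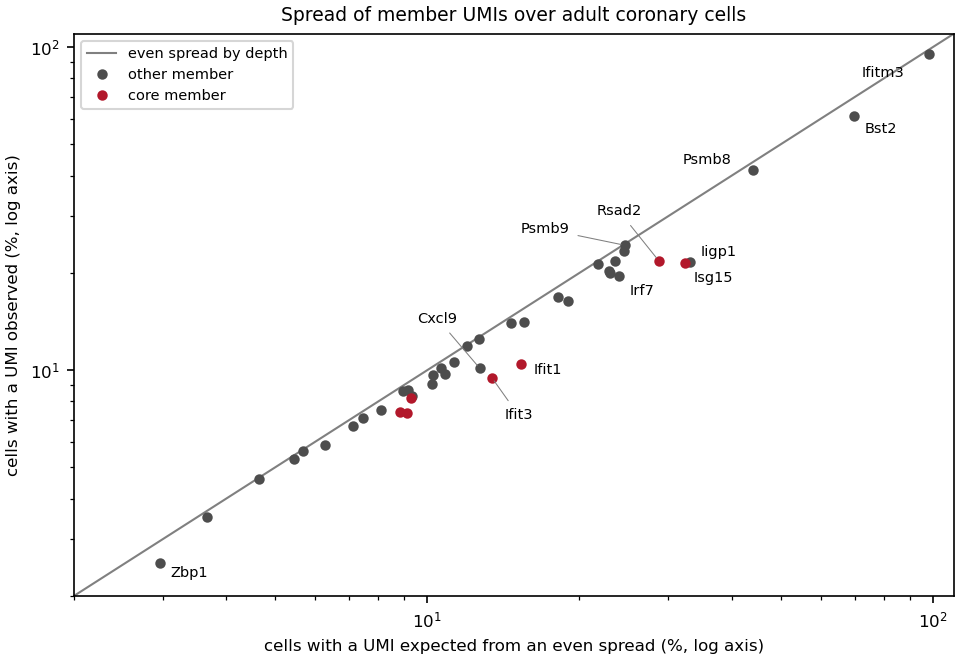
Percent of the 3943 adult coronary cells with a UMI of each member (vertical, log axis) against the percent expected from an even spread by cell depth (horizontal, log axis), for the 42 members with at least 100 UMIs. Points on the line hold a UMI in as many cells as an even spread gives. Psmb8 and Psmb9 lie near it, and Iigp1 and the core members Isg15, Ifit1, Ifit3 and Rsad2 lie below it. Ifitm3 also lies near it, where nearly all cells are expected to hold a UMI and unevenness can hardly show.

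Cells with a high interferon load were defined as those with 3 or more UMIs of the 7 core members after thinning to 500 UMIs, so that shares could be compared at 1 depth. Of coronary cells, 130 of 3943 passed in the adult (3.30%, exact binomial interval 2.76 to 3.90) and 15 of 4463 at P2 (0.336%, 0.188 to 0.554). None passed among 1124 coronary cells at E15, which allows a share of up to 0.267% (3 cells of the total), or among the 107 at E12, which allows up to 2.80% by the same rule. Without thinning the shares were 15% in the adult and 12.3% at P2, whose cells were deeper. In 20 further thinning draws the number of cells lay between 108 and 138 in the adult and between 9 and 18 at P2. Of endocardial cells 2 of 1955 passed at E15, 2 of 1060 at P2 and 0 of 65 in the adult, which allows up to 4.62% (3 of 65). In the adult, 2966 cells held no core UMI after thinning and 847 held 1 or 2. The 130 high-load cells carried 26.1% of the core UMIs of the class, 9.13% of all member UMIs and 3.41% of all UMIs.

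The 130 adult cells were set beside the other 3813 in measures that did not use the core. Their median depth was 1638 against 1463 UMIs, their median mitochondrial share 3.76% against 4.32%, and 48.5% against 45.4% passed the artery rule. Endothelial markers had a ratio of 1.01 and the coronary markers 1.05. The leukocyte markers summed to 13.4 CPM (3 UMIs, 8 of 11 markers at 0, Ptprc, Csf1r and Cd3e among them) against 67.8 CPM, mural and fibroblast markers to 26.7 against 314 CPM, and erythroid markers to 17.8 against 373 CPM. Immediate-early genes were at 7187 against 6014 CPM.

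The members outside the core were then read in these cells, since the core had chosen them. Of these 37, 29 were at least 2-fold higher than in the other adult coronary cells, beside 4.71% of all 10338 genes, and the median ratio was 2.81 for the members and 0.941 for all genes. Ifi47 stood at 241 against 44.5 CPM (5.41-fold, 3.96 to 7.25), Zbp1 at 80.2 against 15.9 CPM (5.05-fold, 2.88 to 8.39) and Igtp at 218 against 53.8 CPM (4.06-fold, 2.95 to 5.49). Eif2ak2 was 4.11-fold higher (2.86 to 5.76), Parp9 4.05-fold (2.64 to 5.99), Rtp4 3.97-fold (3.28 to 4.78), Iigp1 3.48-fold (2.96 to 4.06) and Irf7 3.0-fold (2.44 to 3.67). Iigp1 was found in 50% of the high-load cells and 20.6% of the others. Cxcl10 had the highest ratio, 10.2 (4.98 to 19.8), on 13 UMIs in 2.31% of the high-load cells. The 8 members under 2-fold were Bst2 (1.99), Rnf213 (1.98), Cxcl9 (1.94), Stat2 (1.92), Lgals3bp (1.85), Ifitm3 (1.80), Psmb9 (1.75) and Irf1, which was lowest at 1.29 with an interval that included 1 (0.901 to 1.79). Ifitm3 and Bst2, the 2 most abundant members, were thus among those with the smaller ratios.

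Cells between these extremes held intermediate levels. Adult cells with no core UMI, with 1 or 2, and with 3 or more held 132, 251 and 477 CPM of Irf7, 206, 328 and 811 CPM of Iigp1, 119, 245 and 584 CPM of Rtp4, and 3256, 4157 and 6207 CPM of Ifitm3. Irf1 had no such order, at 130, 120 and 165 CPM.

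**Figure D4:**
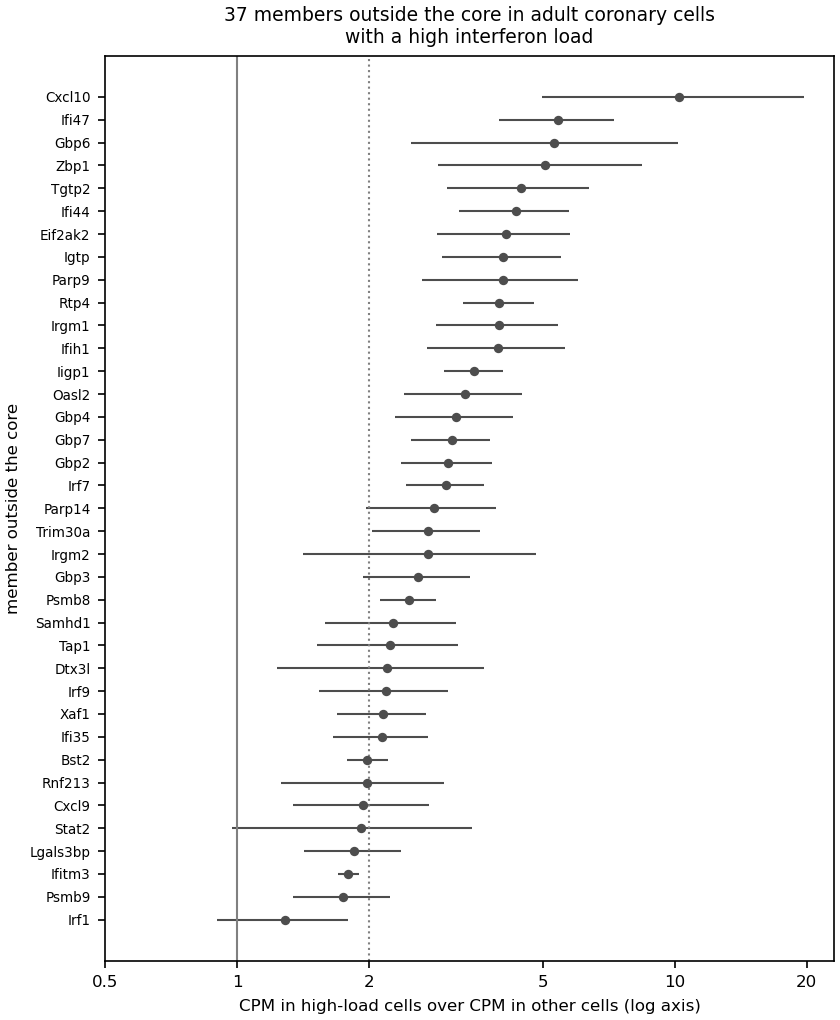
Ratio of CPM in the 130 adult coronary cells with a high interferon load to CPM in the other 3813 (log axis), for the 37 members outside the core that defined the load, with 95% intervals for counting error. The solid line marks 1 and the dotted line 2-fold. Of the points 29 reach the dotted line, Cxcl10 is highest at 10.2 (13 UMIs in 2.31% of the 130 cells) and Irf1 lowest at 1.29.

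Pairs of members were also found in the same cells more often than an even spread by depth would give, scaled to each gene's own number of cells. This look was chosen after the values were seen. Among the 860 member pairs with at least 5 expected cells in the adult coronary class, the median ratio was 1.31, while that of all gene pairs was 1.00, and 65 pairs reached 2, beside 0.154% of all pairs. Ifit1 and Ifit3 shared 144 cells where 46.9 were expected (3.07), Zbp1 and Ifi47 shared 28 where 9.24 were expected (3.03), Ifit2 and Ifit3 shared 99 where 33.4 were expected (2.97), and Ifit1 and Isg15 shared 235 where 103 were expected (2.28). Of the 21 pairs within the core, 14 reached 2. The genomic neighbours Rsad2 and Cmpk2 shared 139 cells where 83.3 were expected (1.67). Rsad2 was looser with the rest of the members than Ifit3, with median ratios of 1.20 and 1.73 over the 41 pairs of each. Psmb8 and Psmb9 shared 500 cells where 455 were expected (1.10). Low medians over 41 pairs were found for Ifitm3 (1.03), which nearly all cells held, for Cxcl9 (1.05) and for Irf1 (1.12), and Cxcl9 with Stat2 gave 0.718 (16 cells where 22.3 were expected). At P2 the median over 771 member pairs was 1.26, and Cxcl9 there reached 2.05 with Psmb9 (23 cells where 11.2 were expected), 1.89 with Irf7 and 1.87 with Rsad2.

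**Figure D5:**
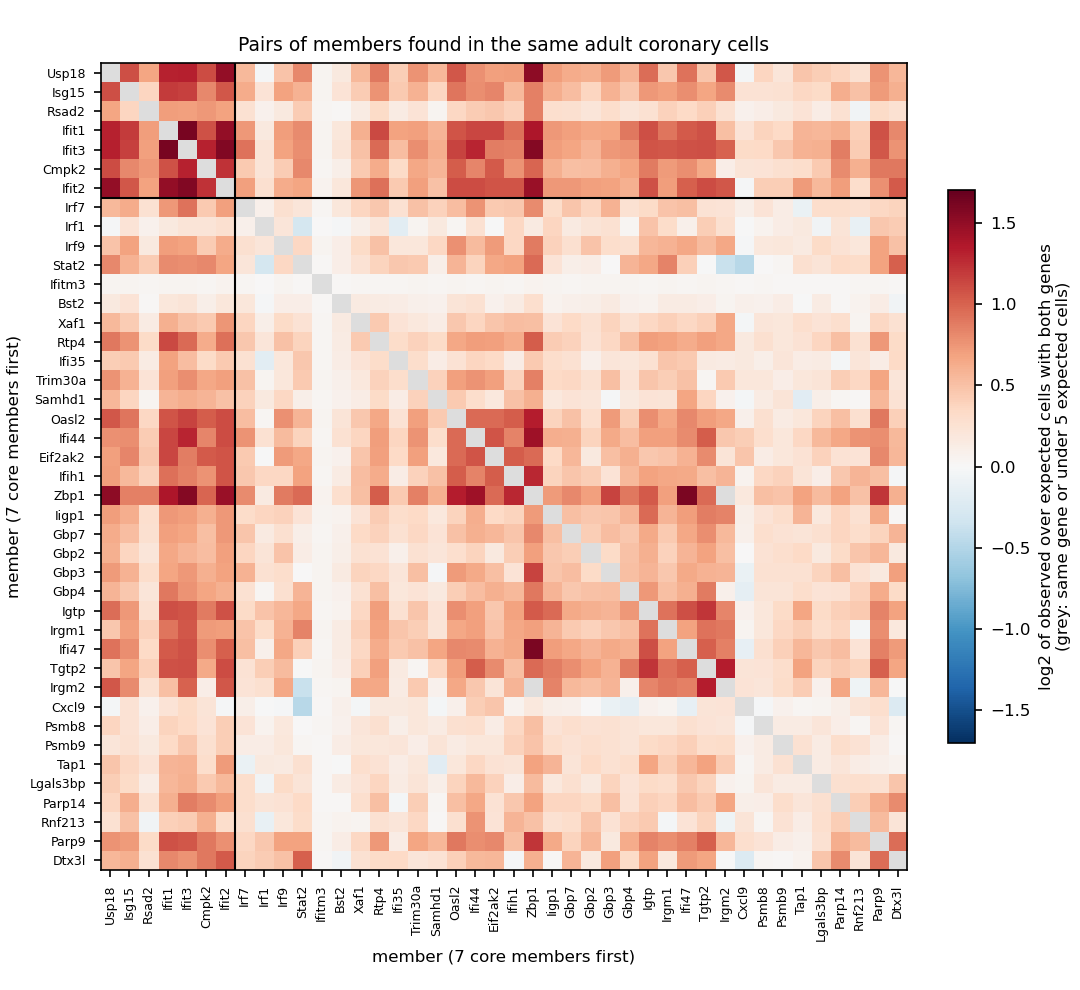
Log2 of the observed over the expected number of adult coronary cells that held both members of a pair, with the 7 core members first and grey where fewer than 5 cells were expected. The block of core genes is the reddest apart from Rsad2, Zbp1 forms a red band with the core and with Ifi47, the rows of Ifitm3 and Bst2 are near white, and Stat2 is blue (fewer cells than expected) with Cxcl9 and Irf1.

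Cxcl9 was followed further, after its values were seen. It was found in 399 of 3943 adult coronary cells (10.1%), whose median depth was 1901 UMIs against 1438 in cells without it. Of the Cxcl9 cells 25 (6.27%) had a high interferon load, against 2.96% of the others, and 37.3% passed the artery rule, against 46.4%. Isg15 was 1.51-fold (1.32 to 1.72) and Iigp1 1.46-fold (1.28 to 1.66) higher in the Cxcl9 cells, among the highest ratios of the members. Most other members had intervals that included 1. Among these were Psmb8 at 1.02 (0.899 to 1.15), Gbp2 at 1.05 (0.845 to 1.29), Xaf1 at 1.00 (0.833 to 1.20) and Stat2 at 0.673 (0.376 to 1.12). The share of all genes higher in these cells is not given. There Cxcl10 was 7.57-fold higher (4.15 to 13.9), on 25 UMIs of a gene whose UMIs sat in few cells. The leukocyte markers of the Cxcl9 cells summed to 12.6 CPM, with Ptprc at 0, against 73.3 CPM in the cells without Cxcl9, and Cd74, the invariant chain of MHC class II, stood at 26.4 against 114 CPM.

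The rest of the pathway was read from fixed lists. Of 20 interferon genes, Ifng had 1 UMI in E15 coronary cells, and Ifnz had 1 at P2 and 2 in the adult, and the other 18 had no UMI in coronary cells at any stage, which says little of secreted signals from other cells. The receptors Ifnar1, Ifnar2, Ifngr1 and Ifngr2 had UMIs in coronary cells at every stage, Ifngr1 with only 2 at E12. Ifnlr1, of the same list, had 0, 0, 6 and 3 UMIs in stage order from E12. Ifnar1 stood at 28.4, 31.1, 55.7 and 50.9 CPM in coronary cells, Ifnar2 at 42.5, 46.3, 54.7 and 111 CPM, and Ifngr2 at 61.4, 63.6, 84.8 and 56.0 CPM. Ifngr1 had larger steps, at 9.45, 42.2, 147 and 345 CPM. Of the receptors and kinases with at least 20 UMIs, 3 of 9 (Ifngr1, Il10rb and Ifnar2) were at least 2-fold higher from P2 to the adult, beside 10.7% of all genes, and Ifngr1 was 3.48-fold higher from E15 to P2 (2.70 to 4.57). For sensors and adaptors the counts were 4 of 10 from E15 to P2 (Tbk1, Dhx58, Ddx58 and Mb21d1), beside 20.6% of all genes, and 3 of 10 from P2 to the adult (Dhx58, Ddx58 and Mavs), beside 10.7%. Across birth the intervals of Dhx58 (0.410 to 98.5, on 1 UMI at E15) and Mb21d1 (0.948 to 5.80) included 1. The genes that damp the response gave 2 of 4 at both steps, beside 20.6% and 10.7% of all genes. They were Socs3 at 7.44 (5.39 to 10.6) and Socs1 at 2.19, with an interval that included 1 (0.921 to 6.84), across birth, and Socs1 at 3.27 (2.62 to 4.08) and Adar at 3.25 (2.61 to 4.04) into the adult.

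Of further interferon-induced genes outside the members, 24 of 33 were at least 2-fold higher from E15 to P2, beside 20.6% of all genes, and 27 of 37 from P2 to the adult, beside 10.7%. Among them, Ly6e, Slfn5, Ifi203, Ifi204, Ifi27, Ifi27l2a, Oas1a, Oasl1, Isg20, Ifit3b, Gbp5, Gbp9, Ddx60, Phf11b, Phf11d, Sp100, Slfn2, Herc6 and Ube2l6 were so at both steps. Gbp8, Parp12, Tor3a and Irf8 were so across birth and not in the later step, and Helz2, Znfx1, Ifitm1 and Uba7 in the later step and not across birth. The calls across birth of Ifi204, Phf11b, Ifit3b and Gbp8 rested on 0 UMIs at E15 and those of Oasl1 and Isg20 on 1. The intervals of these genes included 1, so their rise across birth is uncertain. Oas2, Gm4951, Tgtp1 and Nlrc5 were so in the later step and had under 20 UMIs over E15 and P2, too few for a call across birth. Oas2, which senses double-stranded RNA, had 7 UMIs at P2 and 164 in the adult (78.4-fold, 37.2 to 198). Ccl5, a chemokine of T cells and platelets, was lower, at 17.3 CPM at E15, 4.4 CPM at P2 and 0 UMIs in the adult. Ifitm1, a relative of Ifitm3, was lower at P2 than at E15, at 0.170-fold, and higher again in the adult. Mx1 had 2 UMIs in adult coronary cells and none earlier. Of the genes of antigen presentation, 7 of 11 were at least 2-fold higher from E15 to P2, beside the same 20.6%, and 10 of 11 from P2 to the adult, beside 10.7%, with H2-K1, H2-D1, H2-Q4, Tap2, Tapbp, Erap1 and Psmb10 at both steps and B2m, H2-T23 and Psme1 at the second. H2-K1 was at 14.5 (13.8 to 15.2) and B2m, the light chain of MHC class I, at 4.22 (4.15 to 4.28) in the latter step.

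The same lists were read in the adult high-load cells. Of the other interferon-induced genes, 22 of 35 were at least 2-fold higher than in the remaining cells, beside 4.71% of all genes, with Oasl1 at 12.7 (8.05 to 19.7), Oas1a at 5.36 (3.76 to 7.48) and Isg20 at 4.41 (2.80 to 6.70). Among the others of the 22 were Ifit3b, Gm4951, Ifi204, Gbp5, Tgtp1, Phf11b, Phf11d, Slfn2, Ifi203, Tor3a, Ube2l6, Herc6, Pml, Parp12, Znfx1, Helz2, Ddx60 and Oas2. Of the receptors, Ifnar1 was at 1.14 (0.603 to 1.98) and Ifngr1 at 1.14 (0.912 to 1.41). Beside the same 4.71%, the sensors gave 2 of 10, Dhx58 at 3.84 (1.59 to 8.08) and Ddx58 at 2.62 (1.63 to 4.02), and the damping genes 1 of 4, Socs1 at 2.66 (1.42 to 4.61). Of antigen presentation 0 of 11 were, with a median of 1.36 and B2m at 1.11 (1.05 to 1.17). Outside members and lists the 10 genes with the highest ratios were Ccl21a (22.2), Mnda (12.3), Trafd1 (3.36), Mitd1 (3.15), Mndal (2.88), Parp10 (2.86), Lgals9 (2.64), Rnf114 (2.48), Ogfr (2.37) and Snx11 (2.23). The Ccl21a value came from 2 cells, 1 of which held 129 of its 212 UMIs.

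Iigp1 was looked at in the E12 library, where it had no UMI in coronary cells, after its values were seen. In all it had there 242 UMIs in 208 cells, of which 0 were coronary, 35 endocardial and 65 passed the artery rule, classes that overlap, while 120 fell in no class. Of all kept E12 cells 1.92% were coronary, 29.8% were endocardial and 5.53% passed the artery rule, so few coronary cells could be met. The cells with Iigp1 held 308 CPM of endothelial markers against 1166 CPM in the cells without Iigp1, and 976 against 516 CPM of mural and fibroblast markers. Cxcl12 was at 1191 against 236 CPM in them, the elastic fibre genes Eln at 1762 against 518 CPM and Fbln5 at 839 against 182 CPM, and the pericyte gene Rgs5 at 407 against 82.5 CPM. The core members were at 12.4 CPM (4 UMIs) against 12.8 CPM and the other 10 GTPases had 1 UMI in all 208 cells. The E12 cells with Iigp1 were thus poorer in endothelial markers than the rest. With 4 core UMIs in them, whether they held more of the core members cannot be told. By E15 it was down to 25 UMIs in 23 cells. In the adult 851 of its 874 cells were coronary, near the share of the library, where 3943 of 4087 kept cells (96.5%) were.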

How the data were processed

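Single-cell 3′ RNA libraries (10x Genomics v2 chemistry) of CD31+/CD45- mouse heart cells were deposited as UMI counts per gene and barcode, which the authors made with Cell Ranger 2.2 on mm10, with no normalization. The E12 table held 737280 unfiltered barcodes, so barcodes with at least 452 UMIs (5732) were taken as cells. The upper limits on UMIs, genes and mitochondrial share followed the study, which left 5569, 5880, 5721 and 4087 cells with 7568491, 6486121, 27867530 and 6923134 UMIs at E12, E15, P2 and adult. Doublets were kept. A Scrublet score over 0.15 (scanpy 1.11.5) marked 351, 573, 254 and 103 barcodes, which were removed in an alternative.

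Counts were summed per class and stage in Python 3.11.15 (numpy 2.4.6, scipy 1.17.1, pandas 2.3.3), divided by the class's total and multiplied to CPM. Sums had exact Poisson intervals, ratios exact conditional binomial intervals and shares exact Clopper-Pearson intervals, all at 95% and for counting error only. With 1 library per stage there was no test and no p-value. A gene counted as higher at 2-fold or more with at least 20 UMIs over both groups. The floor for 0 counts was 3 counts. Thinning drew 500 UMIs per cell without replacement, leaving out shallower cells. edgeR 4.0.16 in R 4.3.3 gave only TMM scaling factors. The functions were tested on simulated data.

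Members with at least 20 UMIs in coronary cells of some stage are named with values, pathway genes where past 2-fold, and the 10 other genes with the highest ratio in high-load cells. The members, lists and rules were chosen with earlier results of these data known. The sources used here give no strand setting for the gene counting. A gene of the pathway lists is not reported here.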

Additional observations from a re-analysis of the deposited data

How the results depend on the processing

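Of 94 alternatives to 13 results, 69 moved the value by less than its interval or within 1.5 times for a count, and 25 moved it further. A turn of direction was scored only for the ratios of the member sum, where 0 were found. For counts and shares it was not scored. Those that moved it further are given here. The coronary E15/E12 ratio of the member sum was 2.85 with classes set after thinning to 500 UMIs. The P2/E15 ratio was 3.06 without mitochondrial, ribosomal and haemoglobin genes, 3.10 with TMM factors and 3.02 with median-of-ratios factors. The adult/P2 ratio was 2.60 without barcodes scored as doublets, 2.53 with thinned classes and 2.55 without cells that passed the artery rule. It was 2.54 without those 3 gene kinds, and 2.77 and 2.83 with TMM and median-of-ratios factors. The coronary/endocardial ratio at P2 was 1.54 with thinned classes, 1.64 without the 1% of cells richest in member UMIs, and 1.72 and 1.73 with those factors. In the adult it was 1.62 without upper limits on barcodes and 2.06 and 2.05 with the factors. At 1.5-fold, 24 members were higher in coronary than endocardial P2 cells, in place of 13 at 2-fold, and 17.5% of all genes passed. Under 0.8 of an even spread were 0 members after thinning, in place of 6. The share of high-load coronary cells at P2 and in the adult was 1.59% and 7.56% at 2 or more core UMIs, 0% and 0.964% at 5 or more, and 12.3% and 15% without thinning. The cause of these shifts was not tested beyond what each setting changes by construction. Over the alternatives, 36 to 41 members were higher at P2 than at E15, beside 13.9% to 37.9% of all genes. In the adult against P2 the count was 40 to 43, beside 9.55% to 19.8%. The highest count and share of both steps were those at 1.5-fold. In high-load cells 28 to 33 of the 37 others were higher, and the share of all genes is given only for the main setting, at 4.71%. The adult coronary/endocardial count was 20 to 35. It was lowest without upper limits on barcodes, where 22.6% of all genes passed, and highest at 1.5-fold, where 33.0% passed. For the count in high-load cells, leaving out scored doublets and leaving out cells with leukocyte markers were chosen after seeing the data.

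No paired analysis was possible because each stage had 1 library and all titles carry replicate 1. Depth limits the E12 coronary class most, with 89 member UMIs in 107 cells, and the adult endocardial class, with 734 in 65 cells. Intervals leave out the spread between animals and between libraries.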

Other observations

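The E12 table also held 156803 barcodes with under 100 UMIs, far below the minimum for cells. The member genes summed to 807 CPM in them and to 398 CPM in the E12 cells. Ifitm3, the membrane protein that blocks virus entry, stood at 334 against 137 CPM and the core members at 34.3 against 12.8 CPM, whereas Iigp1 stood at 26.1 against 31.6 CPM. Member UMIs in E12 cells were therefore no more frequent, in CPM, than in the low-count barcodes as a sum, for the core or for Ifitm3. The slightly higher value of Iigp1 rests on 19 UMIs in the low-count barcodes, too few to tell it apart from theirs.

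Cxcl10 was unevenly spread in endocardial P2 cells, where 107 UMIs lay in 13 of 1060 cells and 101 cells were expected from an even spread. In coronary P2 cells its richest cell held 30 UMIs. At that stage as well Cxcl10 was higher in the coronary cells with Cxcl9, 9.49-fold (6.82 to 13.0) on 49 UMIs in 87 cells. The number of cells with both genes is not given here, and a few rich cells could give this ratio. Of the 87 cells 4.60% passed the artery rule against 14.9% of the others.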
